A study of Mus musculus with 6 samples.

Results

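Interferon-induced genes are genes whose transcription is switched on by interferons, and 36 of them were chosen here by name. A gene was measured through the row of the deposited table that named only that gene and had the highest mean over all arrays. By that rule 34 of the 36 genes were measured, out of 22180 genes measured in all. Gbp2 was named only together with a neighbouring gene and Ifi44 by no row used here, so neither was analysed here. Ifi35 had 2 rows, and the other 33 measured genes had 1 row each.

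The values came from 6 Affymetrix whole-transcript arrays of total RNA from tissue labelled as whole hippocampus of male C57BL/6J mice. In the ethanol group (3 arrays), newborn pups were given ethanol at 2.5 g/kg in 0.15 M NaCl under the skin, at 2 time points 2 hours apart, first on postnatal day 4 and again on day 7. The saline group (3 arrays) received saline on the same schedule, and treated and control pups were littermates matched for sex and weight. Each array held RNA pooled from 3 mice, so an array value is an average over animals, and the age at dissection is given as 21 days in the characteristics and as day 70 in the treatment protocol.

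Values are on a log2 scale, on which a difference of 1 is a doubling. Genes of hippocampal neurons had a median level of 6.74 over 16 genes and genes of cerebellar neurons a median of 10.71 over 12 genes. Single genes ran from 5.28 to 8.88 in the hippocampal list and from 7.45 to 12.44 in the cerebellar list. The median over all genes was 7.10. Genes of cerebellar neurons were thus the brighter list in tissue labelled as whole hippocampus. Levels of different probes do not rank transcripts, and the makeup of the tissue was not tested. The tissue is therefore named here only as labelled. Saline array 1 stood apart within its group. In a principal component analysis over all rows it scored -19.9 on the leading component, against 32.6 and 23.7 for saline arrays 2 and 3 and beside -15.7, -19.1 and -1.59 for the ethanol arrays. Counts by sign, and the differences of genes whose values are printed for every array, are therefore given with and without it. Nothing in the labels ties arrays of the same number together.

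Type I interferons are secreted when cells sense foreign or misplaced nucleic acid. They bind a shared receptor whose kinases signal to a complex that includes Stat2 and Irf9 and binds the interferon-stimulated response element (ISRE) in promoters. Interferon gamma uses another receptor, and its signal acts through the gamma-activated site (GAS). In the brain the induced genes are known to be expressed at a low constant level in microglia, astrocytes, endothelial cells and neurons, and to rise together in infection and ageing.

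The promoters are shown because interferon acts on these genes through known sequence elements. RefSeq promoter windows of build GRCm38.p6, from 250 bases before to 50 bases after a transcription start, were found for 28 of the 36 genes. Dhx58, Ifi27, Mx1, Mx2, Oas2, Parp14, Rtp4 and Usp18 had no entry. The ISRE core was searched as GAAA, any 2 bases and GAAA again, on both strands, so that a match on the reverse strand reads TTTC, any 2 bases and TTTC. Overlapping matches were counted. At least 1 promoter window held it in 15 of the 28 genes (53.6%), against 3.99% of 27025 genes and 3.44% of 32851 windows in the whole table. The GAS core, TTCNNNGAA, reads the same on both strands and was present in 8 of the 28 genes (28.6%), against 9.55% of all genes and 8.30% of all windows. A match to these letters is a description and not evidence of binding.

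The windows below belong to the 6 measured genes with an ISRE core that had the largest absolute difference between the groups. They are written 5′ to 3′ on the strand of the gene, in lower case, with the ISRE cores in capitals. The Rsad2 window lies on the minus strand of chr12:26456523-26456612, with its match starting 120 bases before the start of transcription. The Isg15 window lies on the minus strand of chr4:156200835-156200936 and holds 3 overlapping matches that run from 78 to 57 bases before the start. The B2m window lies on the plus strand of chr2:122147508-122147597, with the match starting 139 bases before the start. The Gbp3 window, on the plus strand of chr3:142559959-142560043, holds 2 overlapping matches that begin 45 bases before the start. In Ifitm3, on the minus strand of chr7:141010714-141010743, and in Ifih1, on the minus strand of chr2:62646206-62646233, the first match begins at base 3 and base 33 of the transcript.
Rsad2: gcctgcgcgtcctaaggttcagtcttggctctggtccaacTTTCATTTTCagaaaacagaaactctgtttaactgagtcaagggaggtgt
Isg15: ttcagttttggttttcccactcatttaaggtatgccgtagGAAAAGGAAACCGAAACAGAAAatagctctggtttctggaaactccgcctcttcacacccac
B2m: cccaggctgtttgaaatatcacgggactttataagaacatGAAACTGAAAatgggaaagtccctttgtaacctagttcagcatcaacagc
Gbp3: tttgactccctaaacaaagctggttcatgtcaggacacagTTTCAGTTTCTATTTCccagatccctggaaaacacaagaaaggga
Ifitm3: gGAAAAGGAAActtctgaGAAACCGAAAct
Ifih1: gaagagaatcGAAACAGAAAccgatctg

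No interferon-induced gene passed the test for a difference between ethanol and saline. Levels did vary from pool to pool within a group. Saline array 1 was the highest of the 6 arrays for 20 of 34 genes and ethanol array 2 the lowest for 15 of 34. Across all genes, saline array 1 was the highest for 21.2% and ethanol array 2 the lowest for 17.4%. Ethanol arrays 1 and 3 and saline array 1 were the lowest for 0 of the 34 genes, and ethanol array 2 was the highest for 0. Of the 34 genes, 26 had their highest value on an array numbered 1, 20 in saline and 6 in ethanol.

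**Figure D1:**
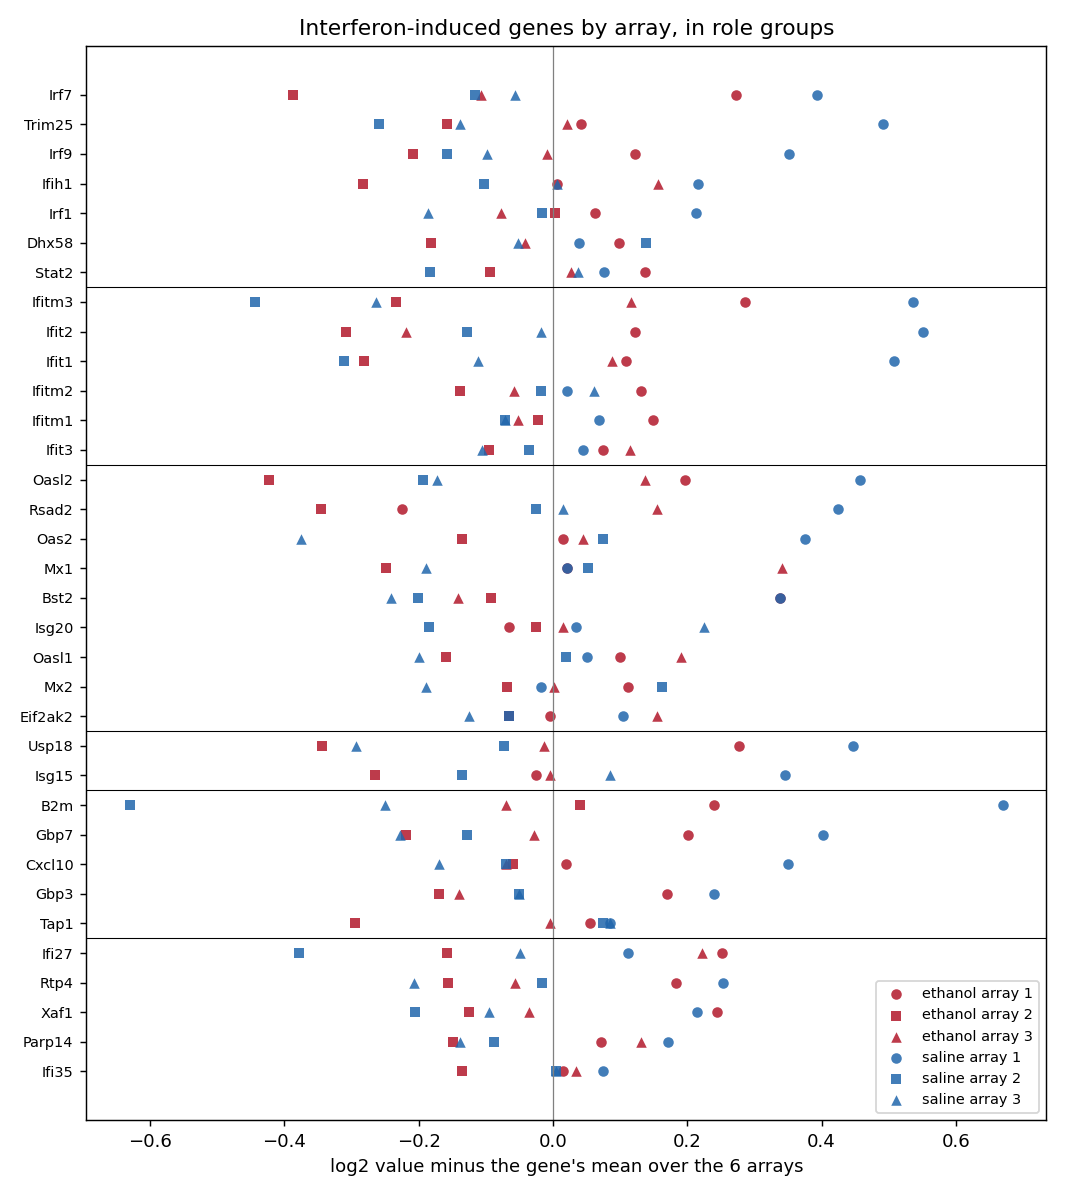
The plot shows each of the 34 genes as a line of 6 points, 1 per array, as the log2 value minus the gene's mean over the 6 arrays, with role groups separated by lines. Saline array 1 (blue circles) is the rightmost point for 20 genes, and ethanol array 2 (red squares) the leftmost for 15.

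The range from the lowest to the highest array had a median of 0.51 on the log2 scale over the 34 genes, against 0.30 over all genes. It passed 0.5 in 17 of 34 genes, against 12.6% of all genes. The median SD between arrays was 0.17 in ethanol and 0.22 in saline for the members, against 0.09 and 0.11 for all genes. Saline array 1 exceeded the mean of the other saline arrays by a median of 0.34, with 19 of 34 genes more than 0.3 above it, where 6.0% of all genes were. Ethanol array 1 exceeded the mean of the other ethanol arrays by a median of 0.20, against 0.00 over all genes. In 19 of 34 genes (55.9%) array 1 was the highest of its group in both groups, against 14.3% of all genes. With quantile normalization the median gap of saline array 1 was 0.355 for the members and 0.039 for all genes, and saline array 1 was again the highest for 20 of 34, as with median centring and after cyclic loess. Ethanol array 2 was the lowest for 13, 11 and 14 of 34 under those scalings. These are descriptions of single arrays and carry no test.

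**Figure D2:**
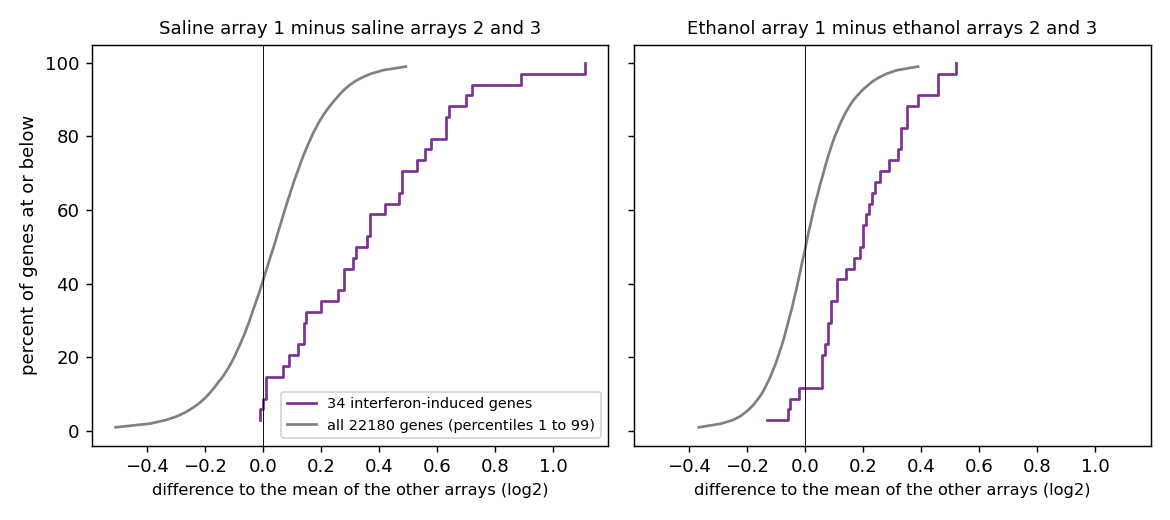
Each panel plots the cumulative percent of genes (vertical axis) against the log2 gap between array 1 and the mean of the other 2 arrays of its group (horizontal axis), for the 34 interferon-induced genes and for all 22180 genes. The median gap is 0.34 against 0.04 in saline and 0.20 against 0.00 in ethanol.

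B2m, the light chain shared by all class I major histocompatibility molecules, had the widest range of the members. It read 10.90, 10.70 and 10.59 on ethanol arrays 1 to 3 and 11.33, 10.03 and 10.41 on saline arrays 1 to 3. Saline held both the highest and the lowest value, with the ethanol arrays between them. The difference of ethanol from saline was 0.14 ± 0.31 (log2, SE of the limma fit, 3 arrays against 3; adjusted p = 0.949). Without saline array 1 it was 0.51, with an unadjusted limma p of 0.0164 and an adjusted p of 0.461. Without saline array 2 it was -0.14. B2m was also the brightest member, at percentile 98.1 of all genes, and lies on chromosome 2 from 122147687 to 122153082 (GRCm38).

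Ifitm3, a membrane protein that blocks the fusion of incoming virus, followed the same order on saline arrays. Its values were 8.14, 7.62 and 7.97 in ethanol and 8.39, 7.41 and 7.59 in saline, so that array 1 was the highest in each group. The difference was 0.11 ± 0.27 (limma adjusted p = 0.950), and 0.41 without saline array 1 (limma unadjusted p = 0.0502, adjusted p = 0.538). Without saline array 2 it was -0.08. Ifitm1 and Ifitm2 are its neighbours on chromosome 7 and belong to the same family. They ranged over only 0.22 and 0.27, with differences of 0.05 ± 0.09 and -0.04 ± 0.09. Saline array 1 stood 0.89 above the mean of the other saline arrays for Ifitm3, 0.14 for Ifitm1 and 0.01 for Ifitm2.

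The Ifit genes encode antiviral proteins, of which Ifit1 binds foreign RNA ends. Ifit1, Ifit2 and Ifit3 lie on chromosome 19 between 34550550 and 34650009 (GRCm38), with further genes of the family, such as Ifit3b, between Ifit3 and Ifit1. Ifit2 read 5.44, 5.01 and 5.10 in ethanol and 5.87, 5.19 and 5.30 in saline. Its groups overlapped through ethanol array 1, and the difference of -0.27 ± 0.20 (limma adjusted p = 0.865) was -0.06 without saline array 1 and -0.40 without saline array 2. Ifit1 ranged over 0.82 and stood 0.72 higher on saline array 1 than on the other saline arrays, with a difference of -0.06 ± 0.22. Ifit3 was flatter, ranging over 0.22 at a mean of 8.07, with a difference of 0.06 ± 0.09. Ifit3 has a close copy, Ifit3b, at a level of 4.82 here, and probes of such copies can bind each other's transcripts.

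Among the sensors and transcription factors, 1 of 7 genes was higher in ethanol by sign, Stat2, at 0.04 ± 0.10. Irf7, which drives further interferon production, ranged over 0.78 with a difference of -0.15 ± 0.20. It stood 0.48 above the rest of its group on saline array 1 and 0.52 on ethanol array 1. Irf9, a DNA-binding partner of Stat2, stood at -0.06 ± 0.16, and Irf1 at -0.01 ± 0.11. Ifih1 and Dhx58, helicases that sense and regulate responses to double-stranded RNA, were both at -0.08, with SE of 0.14 and 0.10. Trim25, a ubiquitin ligase of RNA sensing, was at -0.06 ± 0.20, and its saline array 1 value of 6.44 was above all other arrays, which lay between 5.69 and 5.99. Without saline array 1 the signs were 6 higher and 1 lower, and without ethanol array 2, 4 higher and 3 lower. Without saline array 2 they were 0 higher and 7 lower.

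Of the 9 RNA-directed effectors and restriction factors, 5 were higher and 4 lower by sign. Rsad2, known as viperin, an enzyme that makes a chain-terminating nucleotide, had the largest difference of any member in either direction. It read 6.87, 6.75 and 7.25 in ethanol and 7.52, 7.07 and 7.11 in saline. Ethanol array 3 lay above saline arrays 2 and 3, so the groups overlapped. The difference was -0.28 ± 0.17 (limma adjusted p = 0.857) and -0.13 without saline array 1, and -0.42 without ethanol array 3. Rsad2 was unlike most members in that ethanol array 1 stood below the mean of ethanol arrays 2 and 3, by -0.13.

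Oasl1, a relative of the oligoadenylate synthetases that limits translation of Irf7, read 6.45, 6.19 and 6.54 in ethanol and 6.40, 6.37 and 6.15 in saline. The groups overlapped, with a difference of 0.09 ± 0.12 (limma adjusted p = 0.916). It was 0.13 without saline array 1 and lay between 0.01 and 0.19 leaving out each array in turn. Oasl2, its neighbour on chromosome 5, read 7.41, 6.79 and 7.35 in ethanol and 7.67, 7.02 and 7.04 in saline. Its difference was -0.06 ± 0.23 (limma adjusted p = 0.968) and 0.15 without saline array 1, and ethanol array 2 was the lowest of all. Bst2, known as tetherin, which holds budding virus at the cell surface, read 7.16 on array 1 of both groups and between 6.58 and 6.73 on the other 4 arrays. Its difference was 0.07 ± 0.19. Oas2 stood at -0.05 ± 0.18, the double-stranded RNA kinase Eif2ak2 at 0.06 ± 0.10 and the exonuclease Isg20 at -0.06 ± 0.11. Mx2 was at 0.03 ± 0.11 and Mx1, which is known to be disrupted in common laboratory strains, at 0.08 ± 0.16. Mx1 was the dimmest member at 4.76, percentile 9.6 of all genes.

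Isg15, a ubiquitin-like protein attached to targets during infection, read 6.16, 5.92 and 6.18 in ethanol and 6.53, 6.05 and 6.27 in saline. Of the ethanol values, 2 of 3 lay inside the saline range. The difference of -0.20 ± 0.14 (limma adjusted p = 0.862) was -0.07 without saline array 1 and -0.32 without saline array 2. Usp18, the protease that removes Isg15 and also dampens the type I receptor, was at -0.05 ± 0.22. It had a range of 0.79 and stood 0.63 and 0.46 above the rest of its group on array 1 of saline and of ethanol.

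In antigen presentation, Tap1, a subunit of the transporter that feeds peptides to class I molecules, did not follow B2m. It read 7.90, 7.55 and 7.84 in ethanol and 7.93, 7.92 and 7.93 in saline. Tap1 was the only 1 of the 34 members whose groups did not overlap, where 11.1% of all rows did not (10.5% taken per gene). Its difference was -0.16 ± 0.11 (limma adjusted p = 0.859). It was -0.16 without saline array 1 and -0.06 without ethanol array 2, whose value was the lowest. The guanylate-binding GTPases Gbp3 and Gbp7 stood at -0.10 ± 0.13 and -0.03 ± 0.19, and Cxcl10, a chemokine that attracts T cells, at -0.08 ± 0.14. Cxcl10 read 6.75 on saline array 1 and between 6.23 and 6.42 elsewhere.

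Ifi27, a small hydrophobic protein of the interferon response, had the largest difference upward. It read 7.70, 7.29 and 7.67 in ethanol and 7.56, 7.07 and 7.40 in saline. In both groups array 2 was the lowest and array 1 the highest, and the ranges overlapped. The difference was 0.21 ± 0.16 (limma adjusted p = 0.865) and 0.32 without saline array 1. It was 0.08 without saline array 2 and 0.35 without ethanol array 2. Xaf1, a pro-apoptotic factor, was at 0.06 ± 0.14, the ADP-ribosyltransferase Parp14 at 0.04 ± 0.12, Rtp4 at -0.02 ± 0.14 and Ifi35 at -0.06 ± 0.08.

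**Figure D3:**
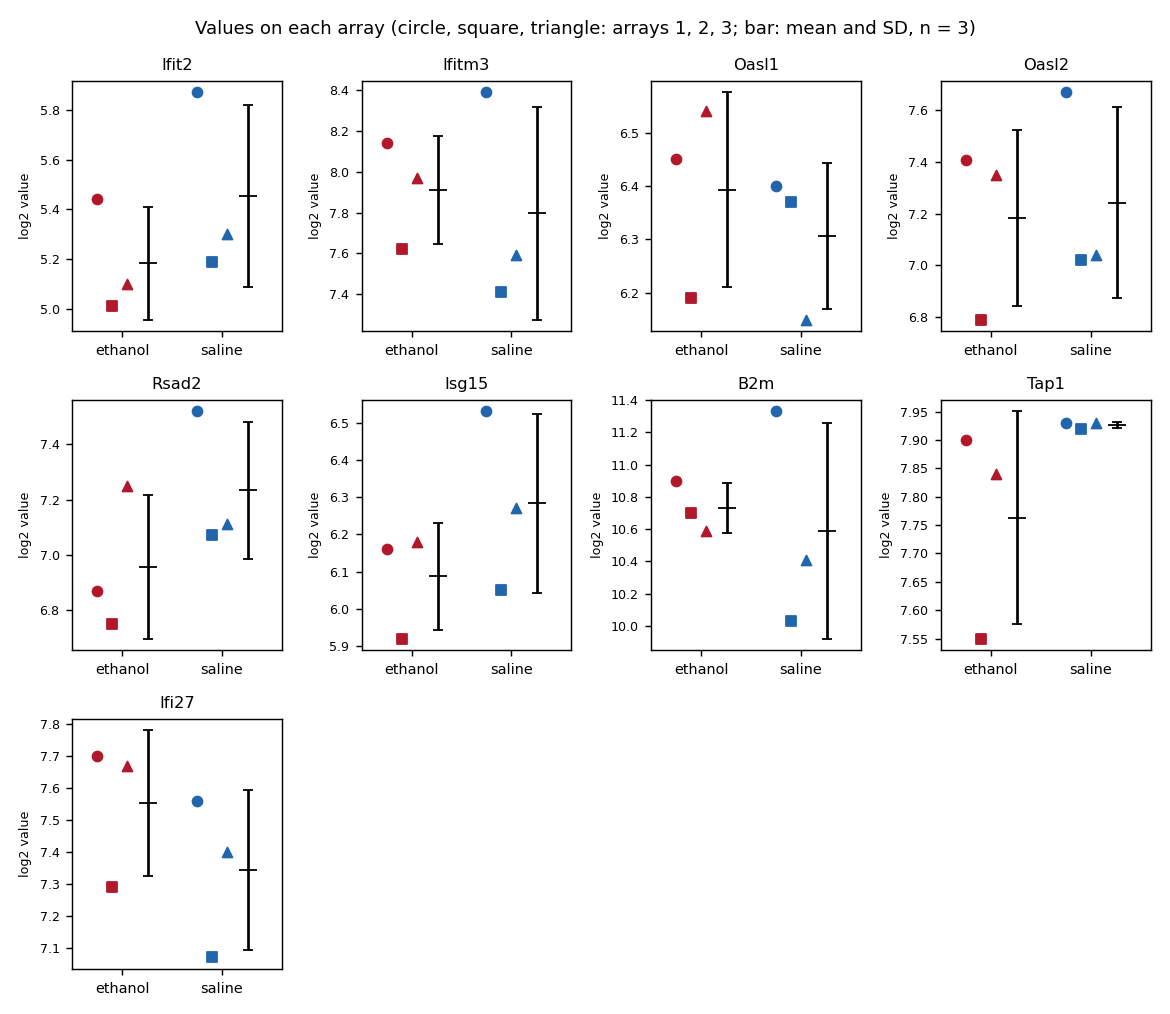
Log2 values of the 9 genes with the largest differences or the widest ranges are plotted by group, with symbols for arrays 1, 2 and 3 and a bar for the mean and SD (n = 3); vertical axes differ between genes and do not start at 0. Saline array 1 is the highest point for Ifit2, Ifitm3, Oasl2, Rsad2, Isg15 and B2m.

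Over the whole set, limma called 0 of 34 genes at an adjusted p under 0.05 over all 41345 rows, and 0 of all rows (0% called). At an unadjusted p under 0.05 there were 0 of 34 members, against 5.54% of all rows and 3.18% of all genes. By sign, 13 of 34 members were higher and 21 lower in ethanol, and the median difference was -0.05, against 57.2% of all genes higher and a median of 0.02. The SE of the differences lay between 0.08 and 0.31, with a median of 0.14. With 3 arrays against 3, an exact permutation test of a single gene cannot go below p = 0.1.

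The balance of signs rested on single arrays. Without saline array 1, 25 of 34 members were higher in ethanol and the median difference was 0.10, against 0.03 over all genes. Limma then called 0 of 34, and B2m was the only 1 of 34 with an unadjusted p under 0.05, where 5.83% of all genes were. By role, 6 of 7 sensors and transcription factors, 4 of 6 IFIT and IFITM genes, 7 of 9 RNA-directed effectors, 1 of the 2 ISG15 genes, 3 of 5 in antigen presentation and 4 of 5 others were then higher. Without ethanol array 2, 23 of 34 were higher with a median of 0.06, and without ethanol array 1, 7 of 34 with a median of -0.09. Without saline array 2, 8 of 34 were higher. With arrays weighted by their quality the count was 19 of 34 and the median 0.02.

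**Figure D4:**
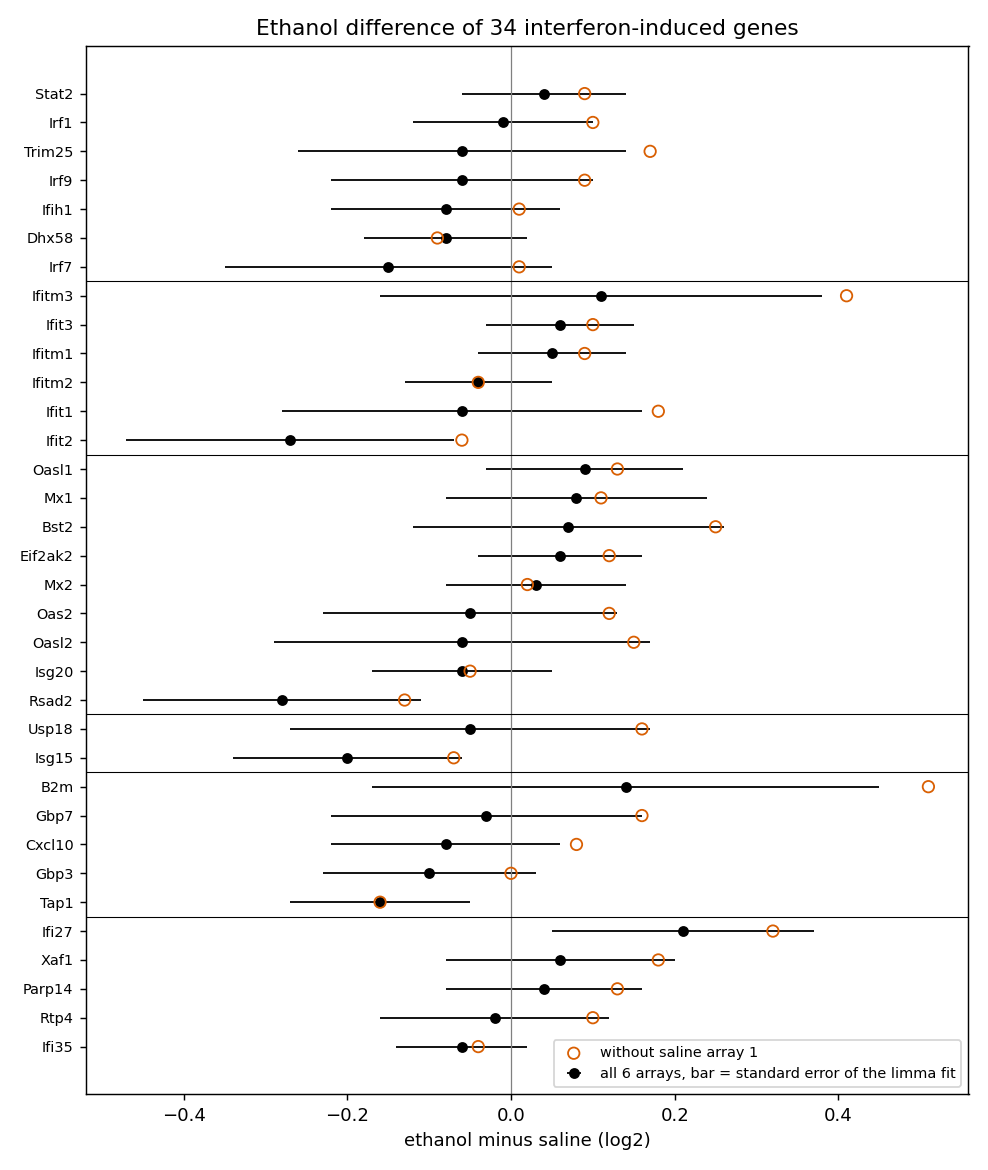
The ethanol minus saline difference (log2) of each of the 34 genes is plotted as a filled point with the SE of the limma fit, in role groups, with the value without saline array 1 as an open circle. With all arrays 13 genes lie to the right of 0, and without saline array 1, 25.

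The genes that lead into and out of the pathway were read from a list of 141 names, of which 120 were measured. Limma called 0 of the 120. At an unadjusted p under 0.05 there were 1 higher and 3 lower, a count close to the 3.18% of all genes. By sign 58 of 120 (48.3%) were higher with a median difference of -0.00, against 57.2% and 0.02 over all genes. With median centring 69 of 120 were higher, but that scaling also raised the share of all genes to 70.5% and their median to 0.06. Without saline array 1, 72 of 120 (60.0%) were higher, against 59.5% of all genes. The same shares of all genes are the background for the lists below under those settings. Saline array 1 was the highest for 51 of 120 genes. The gap of saline array 1 to the other saline arrays had a median of 0.12, against 0.34 in the members.

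Of the interferon ligands, 14 of 19 measured genes were lower by sign, with a median difference of -0.12, and 12 to 13 of 19 under the other scalings. Without saline array 1 there were 12 of 19 lower with a median of -0.08, and without saline array 2, 12 of 19 with a median of -0.06. Ifna2 read 5.61, 5.89 and 5.81 in ethanol and 6.01, 6.21 and 6.01 in saline, and Ifna12 read 6.04, 5.93 and 6.00 against 6.21, 6.53 and 6.11. The groups did not overlap for either gene, with differences of -0.31 ± 0.10 and -0.29 ± 0.12 and a limma adjusted p of 0.857 for both. Without saline array 1 they were -0.34 and -0.33. Of the 5 ligands higher in ethanol, Ifnk at 0.30 ± 0.15 and Ifna7 at 0.26 ± 0.13 had the largest differences, and their groups overlapped. Without saline array 1 these 2 stood at 0.32 and 0.35. Mean levels of single ligands ran from 2.73 to 9.31. Groups did not overlap for 4 of the 19 ligands, all lower in ethanol, against 10.5% of all genes in either direction. The type I interferon genes are close copies of each other, so probes can share transcripts and these rows are uncertain.

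Receptor chains and kinases had 6 of 9 genes higher with a median of 0.04, but 3 of 9 with a median of -0.03 under quantile normalization and after cyclic loess. There were 7 of 9 higher without saline array 1 and 4 of 9 without saline array 2. Ifnar1 and Ifnar2, the chains of the type I receptor, were at 0.04 ± 0.09 and 0.09 ± 0.07, and Ifngr1, a chain of the interferon gamma receptor, at 0.08 ± 0.08. Their range between arrays had a median of 0.26. The transcription factors outside the members had 2 of 6 higher (median -0.00), and 4 of 6 with median centring or 3 of 6 without saline array 1, with Nlrc5, the activator of class I genes, at -0.10 ± 0.07 and Irf8 at 0.07 ± 0.07.

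Sensors and adaptors had 10 of 16 higher with a median of 0.05, and 11 of 16 without saline array 1. Tlr3, the endosomal receptor for double-stranded RNA, read 8.15, 8.05 and 8.01 in ethanol and 7.84, 7.64 and 7.86 in saline, a difference of 0.29 ± 0.09 (limma adjusted p = 0.857). Every ethanol array was above every saline array for Tlr3, and without saline array 1 the difference was 0.32. Ifi204 went the other way at -0.31 ± 0.10 (limma adjusted p = 0.857), at a low mean of 3.29, and at -0.24 without saline array 1. For Ifi204 every ethanol array was below every saline array. In this list the groups thus did not overlap for 1 gene upward and 1 downward, against 10.5% of all genes in either direction. Inhibitors had 6 of 8 higher (median 0.064, but 0.018 with quantile normalization and 0.012 after cyclic loess), and 7 of 8 without saline array 1, with Socs3 at 0.14 ± 0.07 and Socs1 at -0.15 ± 0.10.

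The other interferon-induced genes on the list had 23 of 50 higher with a median of -0.02, and 26 of 50 with a median of 0.02 under quantile normalization. There were 30 of 50 higher without saline array 1 and 16 of 50 without saline array 2. Saline array 1 was the highest for 26 of these 50 genes. Gbp4 stood at 0.56 ± 0.26 and Irgm1 at 0.14 ± 0.07, each with a limma adjusted p of 0.857. Gbp4 was dim, at a mean of 4.63 and percentile 8.8 of all genes, and read 4.97, 4.05 and 4.04 in saline. Without saline array 1 Gbp4 stood at 0.86 (limma unadjusted p = 0.00069, adjusted p = 0.385) and Irgm1 at 0.12. Of the 50 genes, 3 then had an unadjusted limma p under 0.05, against 5.83% of all genes. The antigen processing genes had 6 of 12 higher (median -0.015, and 0.024 with median centring), or 7 of 12 without saline array 1 and 3 of 12 without saline array 2, with H2-M3 at -0.14 ± 0.08 and the immunoproteasome subunit Psmb8 at -0.15 ± 0.09. In that list saline array 1 was the highest for 4 of 12 genes, and its median gap to the other saline arrays was 0.04.

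Markers of cells that could carry these transcripts were set beside the array pattern. Microglial markers were highest on saline array 1 for 12 of 18 genes, with a median gap to the other saline arrays of 0.13. Taken as deviations from each gene's mean over the arrays, their median was 0.14, 0.02 and -0.03 on saline arrays 1 to 3. On ethanol arrays 1 to 3 it was -0.00, -0.01 and -0.06. By sign, 8 of these 18 genes (44.4%) were higher in ethanol, with a median difference of -0.04, against 57.2% of all genes. Without saline array 1, 10 of 18 (55.6%) were higher, against 59.5% of all genes. Lymphocyte and natural killer markers were highest there for 6 of 12 genes (gap 0.10) and neutrophil and monocyte markers for 6 of 11 (gap 0.15), at median levels of 6.23 and 5.69. Hippocampal neuron markers were also highest there for 9 of 16 genes (gap 0.11), at a median level of 6.74. For cerebellar neuron markers it was 4 of 12 (gap 0.06), at a median level of 10.71. Endothelial and mural markers were highest on ethanol array 2 for 8 of 17 genes, the array on which the interferon-induced genes were most often lowest, and on saline array 1 for 2. Within the saline group, though, saline array 1 was above both other arrays for 12 of these 17 genes, with a median gap of 0.18. Astrocyte markers were also highest on ethanol array 2, for 6 of 10 genes. Saline array 1 was above both other saline arrays for 8 of 10 of them, with a gap of 0.16. Across all genes, ethanol array 2 was the highest for 23.1% and saline array 1 for 21.2%. Over those genes saline array 1 was above both other saline arrays for 42.1%, with a gap of 0.04. Saline array 1 was the highest for 0 of 9 choroid plexus and ependyma markers (gap -0.09) and 1 of 10 meningeal fibroblast markers (gap -0.04). The part of these cells in the level of the interferon-induced genes was not tested, and in pooled tissue RNA fewer cells of a type and less RNA per cell cannot be told apart.

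**Figure D5:**
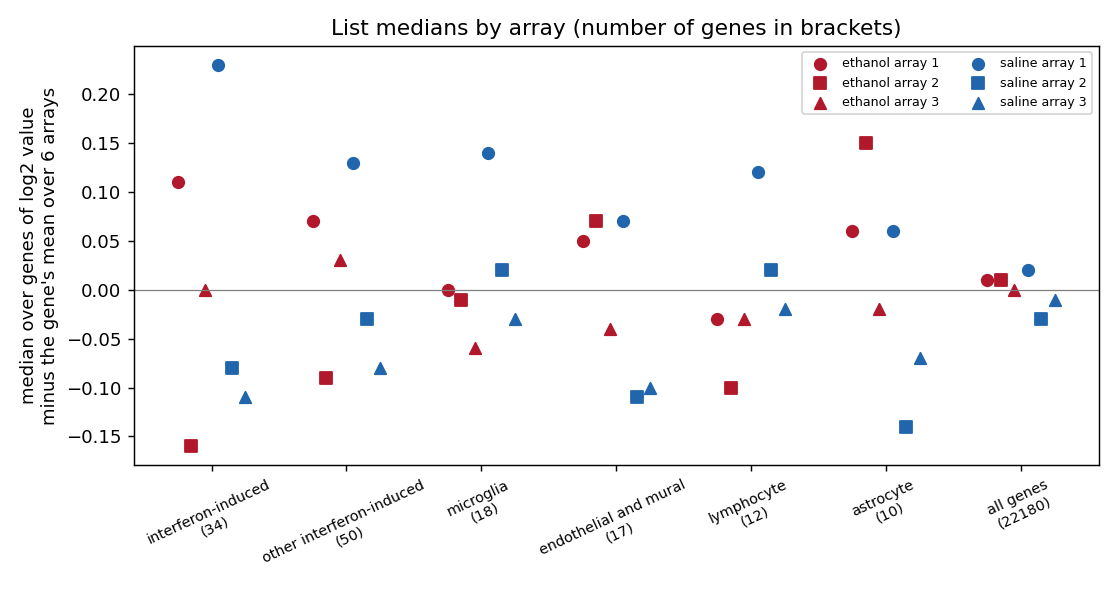
For each list, the vertical axis gives the median over its genes of the log2 value minus the gene's mean over the 6 arrays, with 1 point per array. Saline array 1 stands at 0.23 for the interferon-induced genes, 0.14 for microglial markers and 0.02 for all genes, and ethanol array 2 at -0.16, -0.01 and 0.01.

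Not every interferon-induced gene took part in the pattern between arrays. Saline array 1 was not above both other saline arrays for 6 of the 34 genes. Dhx58, Mx2, Tap1, Ifitm2 and Isg20 had gaps between -0.01 and 0.01, and Mx1 a gap of 0.09. The largest gaps after B2m and Ifitm3 were those of Ifit1 at 0.72, Trim25 at 0.70, Oasl2 at 0.64 and Ifit2 and Usp18 at 0.63. The gap was seen with and without an ISRE core in the promoter window. All these genes were chosen as interferon-induced, so a split by letters in a short window cannot sort them by response to interferon. The median gap was 0.40 over the 14 measured genes with a match and 0.34 over the 12 without. Saline array 1 was the highest for 9 and 7 of them. The median difference between ethanol and saline was -0.04 with a match and -0.06 without.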

How the data were processed

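The authors deposited log2 expression values, 1 column per array, for 41345 rows; the scale was read from the values. How background, summarization and normalization were handled is not given in the sources used here. Per the submitters' processing notes the build was mm10. Per the labels, each labelling reaction started from 200 ng of a pool's RNA. The platform annotation gave 23521 rows 1 gene, 1814 rows several and 16010 none. Levels of different probes do not rank transcripts.

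A limma model (version 3.58.1, R 4.3.3; lmFit, then eBayes; two-sided, without covariates or filter) was fitted to all rows. Benjamini-Hochberg adjustment ran over the full table, with 0.05 as the threshold, and the fit was checked on simulated data. Residual degrees of freedom were 4, with a further 2.94 of prior. Values on every array were printed for the 4 largest differences in each direction and the 4 widest ranges, and 2 genes of each pathway list were named by smallest p. Alternatives changed the scaling, prior, filter, weights, block, row per gene and arrays. The members and lists were chosen with earlier results of these data known. Precision is limited by having 3 arrays a group, and p-values measure the spread between pools.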

Additional observations from a re-analysis of the deposited data

How the results depend on the processing

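Limma called 0 of the 34 interferon-induced genes when the scaling, the prior, the weights, the row per gene or the arrays were changed. It called 0 of the 21 that passed the filter on brightness, where the other 13 were not tested. With the array number as a replicate block it called 0 of 34 and 0 of 41345 rows. Under that block 1 member had an unadjusted p under 0.05, Ifit2, at -0.27 (limma unadjusted p = 0.0372, adjusted p = 0.844). The numbers were not taken as pairs because the labels do not pair them. Deviations of same-numbered arrays from their group means correlated across all rows at 0.101, -0.056 and 0.038. Such a correlation does not speak for the 34 members, and whether they shared an effect of array number was not tested. Of all rows, 0 to 1 were called leaving out 1 array, the 1 without saline array 3. Members higher in ethanol numbered 15 with quantile normalization, 16 with median centring (which raised the median of all genes from 0.02 to 0.06) and 14 after cyclic loess, 7 to 25 leaving out 1 array, and 22 with array 1 of both groups left out. The median difference ran from -0.10 to 0.10 leaving out 1 array. Members whose groups did not overlap numbered 0 with median centring, 2 to 6 leaving out 1 array and 9 with both arrays 1 left out. Fewer arrays make separation easier for any gene. The share of all genes was not counted under those settings, so these counts are not a result about the members. Oasl2 turned to 0.04 with both arrays 1 left out, and to 0.15 at most leaving out 1 array (lowest -0.18). Leaving out 1 array moved B2m between -0.14 and 0.51 and Ifitm3 between -0.08 and 0.41. Cyclic loess and leaving out both arrays 1 were chosen after seeing the data.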
